A study of Mus musculus with 10 samples.

Results

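Lipid-associated macrophages are macrophages that settle around fat-laden or dying adipocytes, take up lipid and break it down in lysosomes. TREM2, a surface receptor for lipids and apolipoproteins, signals through its adaptor TYROBP, and the cells that carry it are recognised by a shared set of genes for receptors, lysosomal proteins, secreted enzymes and adhesion molecules. In brown fat, macrophages are a minority of the cells beside adipocytes, endothelium, fibroblasts and nerve-associated cells. AXL, the receptor tyrosine kinase deleted in these mice, is also made by macrophages, where it binds GAS6 and takes part in the uptake of dying cells.

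The genes described here were 10 genes of lipid-laden macrophages, namely Trem2, Tyrobp, Gpnmb, Mmp12, Itgax, Spp1, Cd9, Lgals3, Clec7a and Cd84, out of 41249 gene identifiers in the files. They were chosen by name as genes known from lipid-laden macrophages, and Trem2 was selected on its Axl KO against WT counts, after its higher level in these Axl KO mice had been seen, so the difference between the genotypes is given below as a description for all 10, and nothing is supported by the counts of calls among them. The data were raw RNA-seq counts of whole interscapular brown adipose tissue (iBAT) from 5 whole-body constitutive Axl KO mice and 5 wild-type (WT) mice. Every mouse of both genotypes was fed a high-fat diet (HFD) for 24 weeks from an age of 6 to 8 weeks, per the labels, at room temperature. The study describes the mice of this comparison as male. The Axl KO line carries a knockout-first cassette in the Axl gene, comes from a pair of embryonic stem cell clones and was compared with littermates. Because the deletion is in every cell of the body, an effect in macrophages and an effect in adipocytes cannot be told apart.

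Total counts ran from 5431014 to 9580215 per mouse. Values are counts scaled to library size (CPM), adjusted by trimmed mean of M-values (TMM) factors, with ± SD over n = 5 mice per genotype. Axl itself was at 1.57 ± 0.646 CPM in Axl KO and 43.1 ± 5.86 CPM in WT, with a log2 fold change of -4.77, so every library matched its label. Among 13739 genes that averaged more than 1 CPM, edgeR's quasi-likelihood test called 1 gene at an adjusted p under 0.05, Axl, which is 0.00728% of the genes tested. At an unadjusted p under 0.05 it listed 1154 genes (8.4%), and DESeq2 called 9 of 13602 genes with an adjusted p (0.0662%). The tissue carried brown fat markers in both genotypes, with Ucp1, the uncoupling protein of thermogenic adipocytes, at 5561 ± 1197 CPM in Axl KO and 4119 ± 863 CPM in WT. Macrophage RNA was present but far less abundant. Lyz2, macrophage lysozyme, was at 52.0 ± 14.5 and 51.4 ± 9.95 CPM, and Csf1r, the receptor for the growth factor that maintains macrophages, was at 29.1 ± 5.72 and 32.7 ± 5.80 CPM.

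Against that, the 10 genes were low. Summed over the 10, they made up 23.6, 25.3, 49.7, 18.6 and 25.8 CPM in Axl KO replicates 1 to 5 and 34.1, 25.2, 24.3, 23.6 and 39.6 CPM in WT replicates 1 to 5. Among Axl KO mice replicate 3 stood apart, WT replicates 5 and 1 were the highest of their genotype, and the genotypes overlapped. In whole tissue, fewer cells of a type and less RNA per cell cannot be told apart, so a level here is that of the tissue and not of a macrophage. With 26 to 439 counts per gene over all 10 mice, the depth allows only wide intervals, and those quoted cover counting error alone.

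**Figure D1:**
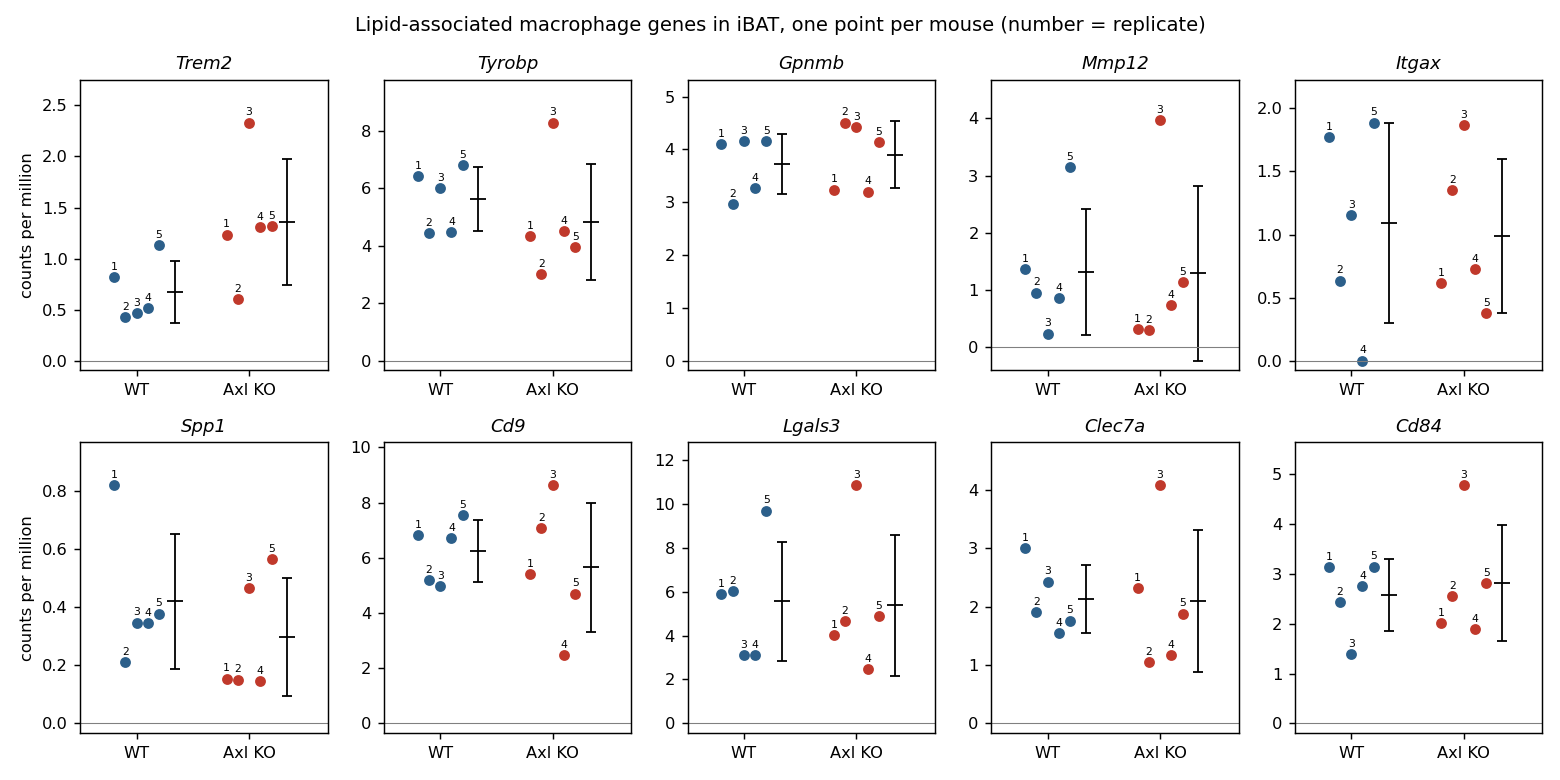
Level of each of the 10 genes in CPM (vertical axis, a separate linear scale for each gene) in 5 WT mice (blue) and 5 Axl KO mice (red). Each point is a mouse with its replicate number, and the black bar is the mean ± SD of the genotype. Axl KO replicate 3 is the highest Axl KO mouse for 8 of the 10 genes, and for every gene the genotypes overlap.

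The receptor and its adaptor are described first. Trem2 (ENSMUSG00000023992) lies on the plus strand at chr17:48346401-48354147 (GRCm38, GENCODE M21). It was counted 8, 4, 20, 9 and 7 times in Axl KO replicates 1 to 5, which is 1.23, 0.601, 2.33, 1.31 and 1.32 CPM. In WT replicates 1 to 5 it was counted 6, 4, 4, 3 and 9 times, or 0.819, 0.423, 0.462, 0.516 and 1.13 CPM. All Axl KO mice but replicate 2 were above every WT mouse, and replicate 2 was below WT replicates 1 and 5. The means were 1.36 ± 0.620 CPM in Axl KO and 0.671 ± 0.302 CPM in WT, a ratio of 2.03, and the fitted log2 fold change was 1.05 (SE 0.39). Pooled over the mice, 48 counts in Axl KO gave 1.42 CPM with an exact Poisson 95% interval of 1.04 to 1.88, and 26 counts in WT gave 0.663 CPM (0.433 to 0.972). Without Axl KO replicate 3 the log2 fold change was 0.72 (SE 0.38), and the remaining 28 counts gave 1.11 CPM with an interval of 0.735 to 1.60, which overlaps that of WT. Trem2 was the only one of the 10 at a log2 fold change above 1, a size that 0.167% of all tested genes reached in that direction, and nothing is read from this because the gene was picked for it.

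Tyrobp (ENSMUSG00000030579, chr7:30413760-30417585, plus strand) encodes the adaptor through which TREM2 and several other myeloid receptors signal. Its level was 4.32, 3.01, 8.28, 4.51 and 3.95 CPM in Axl KO replicates 1 to 5. In WT replicates 1 to 5 it was 6.42, 4.44, 6.01, 4.47 and 6.80 CPM. Only Axl KO replicates 3 and 4 were above the lowest 2 WT mice. The means were 4.81 ± 2.02 and 5.63 ± 1.10 CPM, with a log2 fold change of -0.20 (SE 0.25), which was -0.51 (SE 0.20) without Axl KO replicate 3. The adaptor was thus lower on average in Axl KO while the receptor was higher. Dividing the counts of Trem2 by those of Tyrobp in each mouse gave 0.286, 0.2, 0.282, 0.290 and 0.333 in Axl KO replicates 1 to 5. In WT replicates 1 to 5 the ratio was 0.128, 0.0952, 0.0769, 0.115 and 0.167. The lowest Axl KO ratio, 4 counts over 20 in replicate 2, was above the highest WT ratio, 9 counts over 54 in replicate 5. The means were 0.278 ± 0.0484 in Axl KO and 0.116 ± 0.0341 in WT. This ratio was formed after the values were seen and inherits the choice of Trem2, so it carries no test. Ratios of other gene pairs were not formed, so how common such a gap is was not examined.

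**Figure D2:**
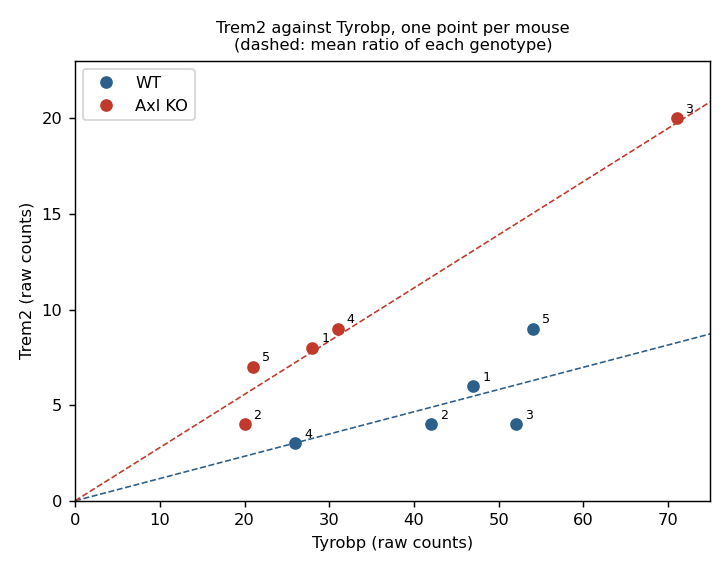
Raw counts of Trem2 (vertical axis) against raw counts of Tyrobp (horizontal axis), with 1 point per mouse labelled by replicate, Axl KO in red and WT in blue. The dashed lines have the mean ratio of each genotype as slope, 0.278 for Axl KO and 0.116 for WT, and each mouse lies nearer the line of its own genotype. The ratio carries no test, since Trem2 was picked for its difference in these counts.

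Promoter sequences from RefSeq (GRCm38.p6), 250 bases before to 50 after each annotated start, held an entry for 9 of the 10 genes, all but Tyrobp. A set of 5 short motifs known from macrophage promoters was searched on both strands. TGANTCA, which with C or G in the middle is the site of the FOS and JUN proteins (AP-1), was found for 5 of the 9 genes, Trem2, Gpnmb, Mmp12, Itgax and Cd84, and in 7.81% of all 32851 windows. Some genes have more than 1 start, and by window it was in 5 of the 12 windows of these genes. The stretches that hold it are shown for the 4 genes in which it lies before the RefSeq start. For Mmp12 that is a second RefSeq start inside the gene, where GENCODE M21 has an intron, and the window at the gene's first start does not hold the motif. All 4 are on the plus strand, at chr17:48346281-48346400 for Trem2, chr7:128129427-128129546 for Itgax, chr9:7347254-7347373 for Mmp12 and chr1:171839447-171839566 for Cd84, and the capitals mark the motif.
Trem2: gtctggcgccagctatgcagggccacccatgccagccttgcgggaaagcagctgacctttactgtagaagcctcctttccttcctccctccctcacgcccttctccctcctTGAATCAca
Itgax: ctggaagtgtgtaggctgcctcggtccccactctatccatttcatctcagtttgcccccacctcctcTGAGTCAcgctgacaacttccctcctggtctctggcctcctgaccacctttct
Mmp12: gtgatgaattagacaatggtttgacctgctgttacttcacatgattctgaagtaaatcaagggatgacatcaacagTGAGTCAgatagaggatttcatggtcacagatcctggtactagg
Cd84: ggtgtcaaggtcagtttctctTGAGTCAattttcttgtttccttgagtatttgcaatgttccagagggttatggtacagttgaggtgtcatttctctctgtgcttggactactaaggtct
Counted from the RefSeq start of each window, the motif began at position -9 in Trem2, -56 in Itgax, -44 in Mmp12 (from the second start) and -229 in Cd84, and at position 9 in Gpnmb. The middle letter is A in Trem2, outside the usual AP-1 form, and G in the other 3 stretches. GAGGAA, a short form of the site of the macrophage factor PU.1, was found for 5 of 9 genes (Trem2, Mmp12, Spp1, Clec7a and Cd84), in 6 of their 12 windows and in 28.3% of all windows. GGGCGG, the GC box, was found for Cd9 and Lgals3, in 2 of the 12 windows and in 35.7% of all windows. CACGTG, the E-box read by the lysosomal factors MITF and TFEB, was in no window of the 9 genes and in 7.15% of all windows. A longer form of the PU.1 site, which can contain GAGGAA, was in none either and in 1.09% of all windows. These are matches of letters and not binding sites, and no binding was measured.

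The other surface receptors were Itgax, Clec7a and Cd84. Itgax (ENSMUSG00000030789, chr7:128129547-128150657, plus strand) encodes CD11c, an integrin chain of dendritic cells and of macrophages in obese fat. Its level was 0.617, 1.35, 1.87, 0.728 and 0.376 CPM in Axl KO replicates 1 to 5. WT replicates 1 to 5 had 1.77, 0.635, 1.16, 0 and 1.89 CPM, where the 0 counts of WT replicate 4 allow a level of up to 0.516 CPM (3 counts). The mice of both genotypes covered nearly the same range, and the log2 fold change was -0.10 (SE 0.56).

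Clec7a (ENSMUSG00000079293, chr6:129461591-129472779, minus strand) encodes dectin-1, a receptor for fungal glucans, and GENCODE M21 lists it as a polymorphic pseudogene. It was at 2.31, 1.05, 4.08, 1.16 and 1.88 CPM in Axl KO replicates 1 to 5 and at 3.00, 1.90, 2.43, 1.55 and 1.76 CPM in WT replicates 1 to 5. Of all 10 mice, Axl KO replicate 3 was the highest and Axl KO replicate 2 the lowest. The log2 fold change was 0.01 (SE 0.35), and -0.43 (SE 0.30) without Axl KO replicate 3.

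Cd84 (ENSMUSG00000038147, chr1:171839697-171890718, plus strand) encodes a self-binding receptor of the SLAM family on leukocytes. Axl KO replicates 1 to 5 had 2.01, 2.56, 4.78, 1.89 and 2.82 CPM. WT replicates 1 to 5 had 3.14, 2.43, 1.39, 2.75 and 3.15 CPM. The highest mouse was again Axl KO replicate 3, while the lowest was a WT mouse. The genotypes had 99 counts each in total, and the log2 fold change was 0.16 (SE 0.30), or -0.15 (SE 0.27) without Axl KO replicate 3.

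The secreted products were Mmp12, Spp1 and Lgals3. Mmp12 (ENSMUSG00000049723, chr9:7344381-7369499, plus strand) encodes macrophage elastase, a matrix protease. Its level was 0.309, 0.301, 3.96, 0.728 and 1.13 CPM in Axl KO replicates 1 to 5. In WT replicates 1 to 5 it was 1.37, 0.952, 0.231, 0.860 and 3.15 CPM. Axl KO replicate 3 and WT replicate 5 were far above the other 8 mice, and these mice held 34 and 25 of its 100 counts. The means were 1.29 ± 1.54 and 1.31 ± 1.10 CPM, and the log2 fold change of 0.08 (SE 0.70) became -1.11 (SE 0.67) without Axl KO replicate 3 and 0.71 without WT replicate 5.

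Spp1 (ENSMUSG00000029304, chr5:104435118-104441050, plus strand) encodes osteopontin, a secreted ligand of integrins and CD44. It was counted 1, 1, 4, 1 and 3 times in Axl KO replicates 1 to 5 and 6, 2, 3, 2 and 3 times in WT replicates 1 to 5. These were 10 counts in Axl KO, or 0.295 CPM (exact Poisson 95% interval 0.141 to 0.543), and 16 in WT, or 0.408 CPM (0.233 to 0.663). The intervals overlapped. With a mean of 0.358 CPM over all 10 mice it was the only one of the 10 below the filter of 1 CPM. Trem2, at 1.01 CPM, was just above the filter through its Axl KO mice, with a WT mean of 0.671 CPM. Fitted without the filter, the log2 fold change of Spp1 was -0.46 (SE 0.57).

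Lgals3 (ENSMUSG00000050335, chr14:47367751-47386160, plus strand) encodes galectin-3, a sugar-binding protein that marks phagocytic macrophages and damaged lysosomes. Axl KO replicates 1 to 5 had 4.01, 4.66, 10.8, 2.47 and 4.89 CPM. WT replicates 1 to 5 had 5.87, 6.03, 3.12, 3.09 and 9.69 CPM. As for Mmp12, the 2 highest mice were Axl KO replicate 3 and WT replicate 5. The means were 5.38 ± 3.20 and 5.56 ± 2.71 CPM, and the log2 fold change was -0.03 (SE 0.39), or -0.49 (SE 0.35) without Axl KO replicate 3.

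Gpnmb and Cd9 encode membrane proteins that are not confined to macrophages. Gpnmb (ENSMUSG00000029816, chr6:49036546-49070929, plus strand), a glycoprotein of lysosomes and melanosomes, was at 3.24, 4.51, 4.43, 3.20 and 4.14 CPM in Axl KO replicates 1 to 5. It was at 4.10, 2.96, 4.16, 3.27 and 4.15 CPM in WT replicates 1 to 5. All 10 mice were close together, and the log2 fold change was 0.07 (SE 0.17). Cd9 (ENSMUSG00000030342, chr6:125460266-125494791, minus strand), a tetraspanin of many cell types, was at 5.40, 7.06, 8.63, 2.47 and 4.70 CPM in Axl KO replicates 1 to 5. WT replicates 1 to 5 had 6.83, 5.18, 4.97, 6.71 and 7.55 CPM. The Axl KO mice spanned a wider range than the WT mice on both sides, and the log2 fold change was -0.12 (SE 0.26).

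Of the 9 genes above the filter, 5 were higher and 4 lower in Axl KO, and 49.8% of all tested genes were higher. Their median log2 fold change was 0.01, beside -0.00059 over all tested genes. None of the 9 was called by edgeR's quasi-likelihood test (0.00728% of all genes were), 1 had an unadjusted p under 0.05 (4.54% of all genes did in that direction and 3.86% in the other), and DESeq2 called 0 of the 7 to which it gave an adjusted p. The 1 gene was Trem2, which was picked for its difference in these counts, so nothing is read from that count or from the shares beside it. It is also among the 5 higher genes and passed the filter of 1 CPM only through its Axl KO mice (1.36 CPM, beside 0.671 CPM in WT). Itgax was near the filter too, at 0.988 CPM in Axl KO and 1.09 CPM in WT. For 0 of the 10 did the genotypes separate, against 1.35% of all tested genes. When Axl KO replicate 3 was left out, the median was -0.43, with 2 genes (Trem2 and Gpnmb) higher and 7 lower in Axl KO, and without WT replicate 5 it was 0.17, with 6 higher and 3 lower.

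**Figure D3:**
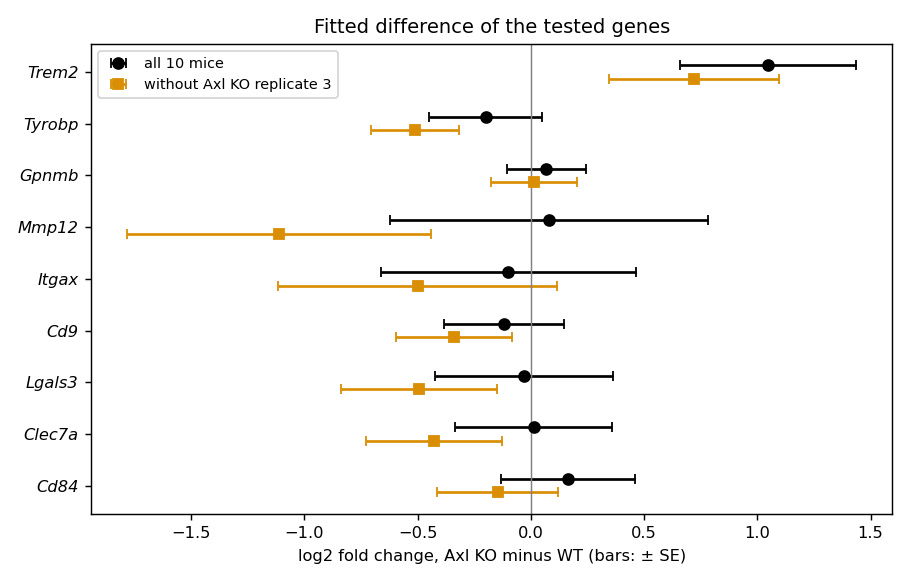
Fitted log2 fold change of Axl KO over WT (horizontal axis, with bars of ± SE) for the 9 genes above the filter, from all 10 mice (black circles) and without Axl KO replicate 3 (orange squares). Trem2, which was picked for its rise in these counts, keeps a positive value in both. The values of the other genes are at 0.01 (Gpnmb) or below 0 without that mouse.

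The spread between mice differed from gene to gene. From the number of counts alone, a coefficient of variation of 36.8% would arise for Trem2, and 48.1% was seen within genotypes. For Mmp12 the figures were 31.6% from counting and 103% seen, and for Lgals3 15.5% and 54.2%. Gpnmb, by contrast, varied by 15.9%, less than the 18.9% from counting. edgeR's estimate of the variation between mice beyond counting was 72.1% for Mmp12, 49.0% for Itgax, 41.1% for Lgals3 and 11.0% for Gpnmb, beside a median of 17.8% over the 3778 tested genes with a mean between 1 and 6 CPM. Mmp12 was at the 98.3rd percentile of those genes and Gpnmb at the 12.7th.

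Levels between genes were compared per kilobase of merged exons. Tyrobp had the highest level, 7.83 ± 2.39 CPM per kb (SD over 10 mice), followed by Lgals3 with 2.94 ± 1.51 and Cd9 with 2.91 ± 0.860. Clec7a (0.801 ± 0.343), Gpnmb (0.586 ± 0.0888) and Cd84 (0.429 ± 0.147) came next. Spp1 (0.217 ± 0.131), Itgax (0.216 ± 0.139), Trem2 (0.205 ± 0.118) and Mmp12 (0.179 ± 0.174) were the lowest. Tyrobp was above Lgals3, Cd9 above Clec7a, and Cd84 above Spp1 in 10 of 10 mice. Lgals3 was above Cd9 in 5 of 10 mice, Spp1 above Itgax in 3, Itgax above Trem2 in 5 and Trem2 above Mmp12 in 5, so the order of these neighbours is not beyond their spread. Several places depended on the length used. The merged exons of Trem2, 4946 bases, include a retained-intron transcript, and with the principal transcript of 1088 bases its level was 0.933 CPM per kb and it moved from rank 9 to rank 6. With principal transcripts Spp1 moved from rank 7 to 10 and Mmp12 from 10 to 8, and Itgax and Cd84 fell by 1 rank. Cd9 (4.85 CPM per kb) came before Lgals3 (3.85), and Clec7a was at 2.99 CPM per kb.

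Whether the genes varied together from mouse to mouse was examined within each genotype. After the mean of its genotype was taken from each mouse's log2(CPM + 0.5), all 45 pairs of the 10 genes had a positive Pearson r, from 0.23 to 0.89 with a median of 0.52. The pairs share libraries and depth, and how often pairs of other genes vary together in these mice was not examined. In an exact two-sided permutation test over all 14400 pairings within genotype, adjusted over the 45 pairs and 10 relations with macrophage markers, 0 pairs passed an adjusted p of 0.05, while 10 had an unadjusted p under 0.05 (8 by Spearman's rho). The lowest adjusted p was 0.0866 for r and 0.160 for rho.

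The 3 pairs with the highest r involved Trem2, Tyrobp, Mmp12 and Cd84. Trem2 and Tyrobp had r = 0.89 (exact permutation p = 0.00736, adjusted 0.0987) and rho = 0.84 (p = 0.00979, adjusted 0.160), with r = 0.73 without the 2 mice farthest from the median of Trem2. Trem2 and Mmp12 had r = 0.87 (exact permutation p = 0.00201, adjusted 0.0866) and rho = 0.84 (p = 0.00757, adjusted 0.160), with r = 0.80 without the 2 farthest mice. Mmp12 and Cd84 had r = 0.87 (exact permutation p = 0.00472, adjusted 0.0866) and rho = 0.85 (p = 0.00486, adjusted 0.160), with r = 0.76 without the 2 farthest mice. Axl KO replicate 3 was among the mice left out each time. Without Axl KO replicate 3 alone, 40 of the 45 pairs were positive with a median r of 0.33, and without both it and WT replicate 5, 33 of 45 with a median of 0.23.

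The same mice were high for macrophage RNA at large. The summed level of 18 pan-macrophage markers was 200, 187, 273, 161 and 222 CPM in Axl KO replicates 1 to 5. It was 233, 191, 205, 180 and 264 CPM in WT replicates 1 to 5. Axl KO replicate 3 and WT replicate 5 were the highest of their genotypes, as they were for the 10 genes. All 10 genes had a positive r with the mean of the pan-macrophage markers (0.54 to 0.89, median 0.69), 0 passed an adjusted p of 0.05 and 7 had an unadjusted exact permutation p under 0.05 (5 by rho). The share of all tested genes that would do so was not examined, so these counts are not shown to be particular to the 10 genes. Lgals3 had the highest, r = 0.89 (exact permutation p = 0.00438, adjusted 0.0866) and rho = 0.78 (p = 0.0190, adjusted 0.160), with r = 0.78 without the 2 farthest mice. That was the highest of the 10 genes without these mice, Axl KO replicates 3 and 4, and the lowest was 0.23 (Cd9). Without Axl KO replicate 3 alone, the median r of the 10 genes was 0.51. The endothelial markers were also at their highest in Axl KO replicate 3 (609 CPM) and WT replicate 5 (690 CPM), beside 482 to 543 and 487 to 558 CPM in the other mice of each genotype. Markers of skeletal muscle, a tissue next to the depot, ran from 88.5 to 2932 CPM in Axl KO and from 774 to 3484 CPM in WT, and the highest mice were Axl KO replicate 5 and WT replicate 3. Axl KO replicate 3 was the highest of its genotype for fibroblast (698 CPM) and monocyte (138 CPM) markers as well. Its brown adipocyte markers were the lowest of its genotype, 9155 CPM beside 9913 to 12408 CPM. The monocyte list holds Fn1, which encodes a matrix protein and was alone at 61.0 ± 23.5 CPM in Axl KO and 82.7 ± 18.8 CPM in WT. The sum of that list is therefore not a measure of monocytes alone. WT replicate 5 was at neither extreme of its genotype for the fibroblast, monocyte and brown adipocyte lists, and had the lowest muscle sum of WT, 774 CPM. The part of these tissue differences in the levels of the 10 genes was not tested.

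**Figure D4:**
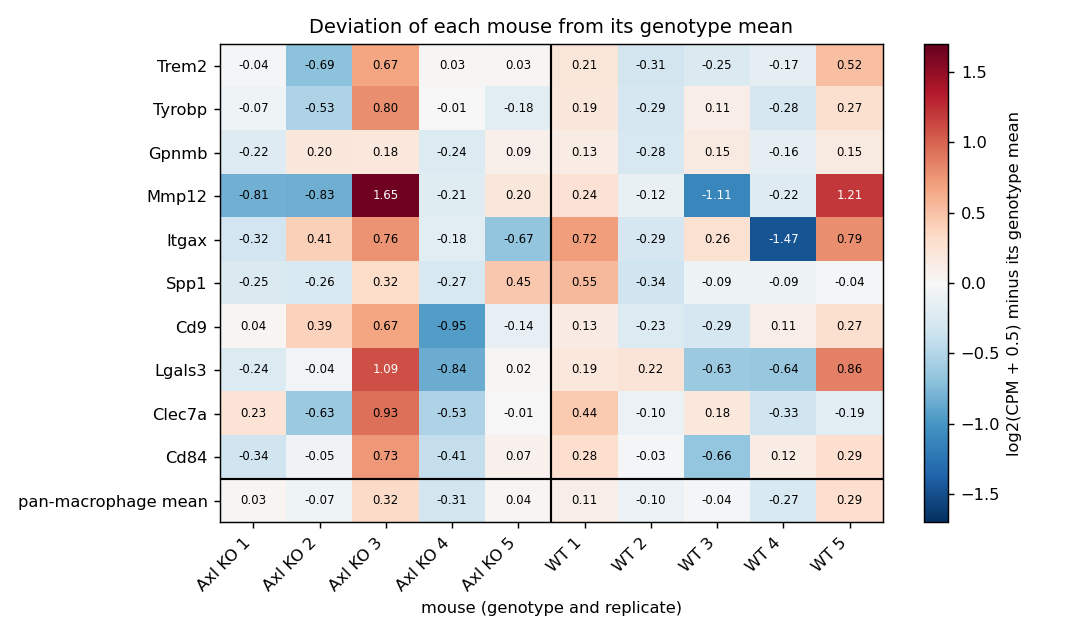
Deviation of each mouse from the mean of its genotype, in log2(CPM + 0.5), for the 10 genes and the mean of the pan-macrophage markers (rows) in 5 Axl KO and 5 WT mice (columns), with red above and blue below the mean. The column of Axl KO replicate 3 is red for every gene, from 0.18 for Gpnmb to 1.65 for Mmp12.

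Genes around the 10 were grouped in lists, and edgeR's quasi-likelihood test called 0 genes in each list named below, with unadjusted counts beside the 8.4% of all genes. Of 24 tested genes for lipid handling and lysosomes, 20 were higher in Axl KO with a median log2 fold change of 0.12, and 3 had an unadjusted p under 0.05, all higher. DESeq2 also called 0 of them. Ctsz, a lysosomal cathepsin, was at 405 ± 185 CPM in Axl KO and 233 ± 37.7 CPM in WT (log2 fold change 0.80, SE 0.25, edgeR adjusted p = 0.571). Which cells the Ctsz RNA came from was not tested. Lpl, Fabp4 and Cd36 carried most of the list's counts, at 2703, 7071 and 3652 CPM in Axl KO, and adipocytes make all 3 as well.

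In TREM2-TYROBP signalling, 13 of 19 listed genes were tested, 7 were higher and 6 lower with a median of 0.01, and 0 had an unadjusted p under 0.05. Of the sheddases that cut TREM2 from the surface, Adam10 was close to level, at 37.1 ± 3.25 and 37.3 ± 2.72 CPM. Adam17 was at 48.7 ± 3.71 and 44.1 ± 2.42 CPM (log2 fold change 0.14, SE 0.07, edgeR adjusted p = 0.599). Among 14 tested binding partners of the encoded proteins, 2 were higher and 12 lower with a median of -0.10, and 0 had an unadjusted p under 0.05. Cd81, a tetraspanin that pairs with CD9, was at 248 ± 21.2 and 269 ± 10.9 CPM. Among 16 growth and transcription factors of macrophages, 7 were higher and 9 lower with a median of -0.06. Nr1h3, the lipid-sensing receptor LXR alpha, was at 85.5 ± 8.92 and 74.7 ± 3.80 CPM (log2 fold change 0.19, SE 0.07, edgeR adjusted p = 0.571). It was the 1 gene of that list with an unadjusted p under 0.05. These are levels of the whole tissue, and which cells the Nr1h3 RNA came from was not tested.

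Markers of macrophages as a whole were level on average, with 8 of 17 tested pan-macrophage markers higher, 9 lower and a median of -0.0034. Of 8 tested resident markers 6 were higher and 2 lower (median 0.07), and Pf4, a chemokine of resident macrophages, was at 4.65 ± 1.05 and 3.66 ± 1.02 CPM. Of 5 tested monocyte and recruitment genes 4 were higher and 1 lower (median 0.13). The lower one was Fn1 (log2 fold change -0.44, SE 0.23). Ccr2, the receptor that brings monocytes into tissue, was at 6.25 ± 3.40 and 6.14 ± 1.36 CPM. Of 4 tested inflammatory genes 1 was higher and 3 lower (median -0.22), and of 3 tested dendritic cell markers 2 were higher and 1 lower (median 0.11). In these 5 lists 0 genes had an unadjusted p under 0.05 and DESeq2 called 0. The 8 neutrophil markers, of which 1 was tested and 2 were at 0 in every mouse, summed to 2.04 to 2.40 CPM in Axl KO and 0.755 to 1.91 CPM in WT. These low sums were not tested, and nothing is read from the small gap between them. The genotypes overlapped for the tested marker, Csf3r, at 1.12 ± 0.374 and 0.953 ± 0.546 CPM. The 12 B, T and NK cell markers, of which 0 were tested, summed to 1.35 to 2.56 and 1.72 to 3.17 CPM.

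Markers of cells other than macrophages were also counted, and edgeR called 0 of them. All 10 brown adipocyte markers were higher in Axl KO (median 0.09), 5 of them at an unadjusted p under 0.05, and DESeq2 called 1, Dio2, the enzyme that activates thyroid hormone, at 99.6 ± 29.0 and 53.8 ± 15.5 CPM (DESeq2 adjusted p = 0.0298, edgeR adjusted p = 0.571). Of 8 endothelial markers 2 were higher and 6 lower (median -0.14), and 2 lower ones, Cldn5 among them, had an unadjusted p under 0.05. All 8 fibroblast markers were lower (median -0.24), 1 of them (Col1a1) at an unadjusted p under 0.05. Of 5 tested Schwann cell markers 1 was higher and 4 lower (median -0.20), and all 8 muscle markers were lower (median -1.02), with 0 at an unadjusted p under 0.05 in either list. All 4 tested mast cell markers were higher (median 0.62), 2 of them at an unadjusted p under 0.05. Summed, the 6 mast cell markers came to 6.76 to 17.0 CPM in Axl KO and 6.19 to 12.3 CPM in WT, and were highest in Axl KO replicate 3 and WT replicate 3.

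**Figure D5:**
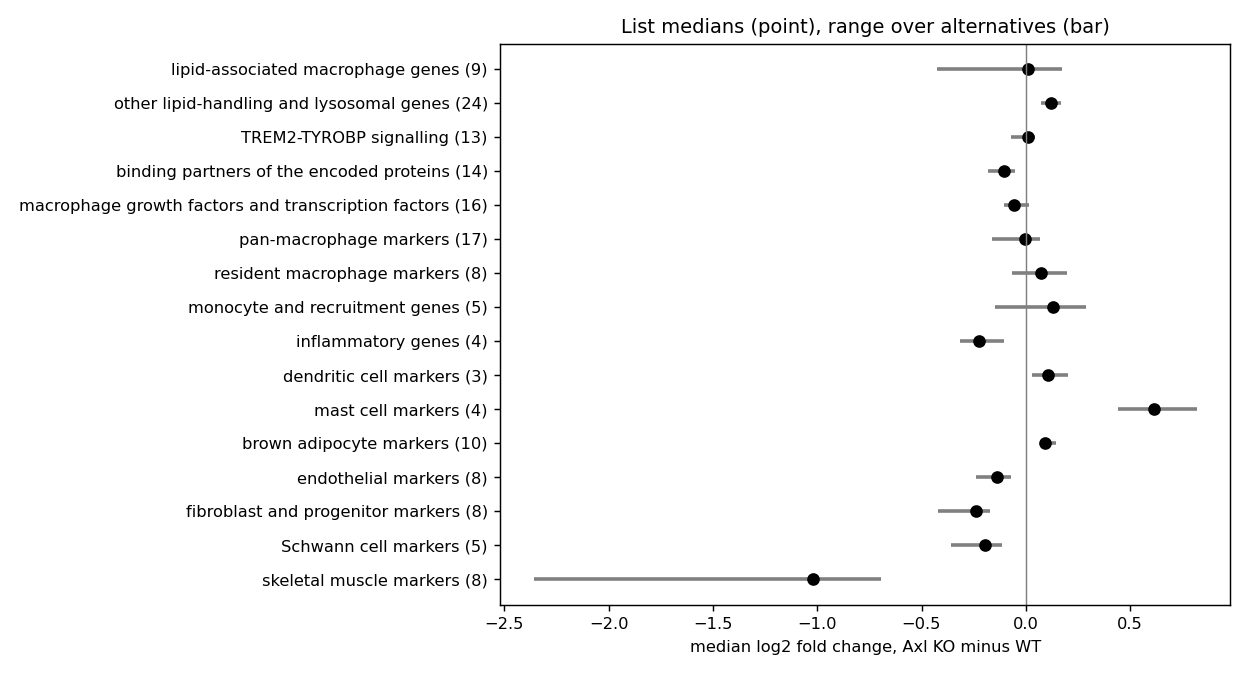
Median log2 fold change of Axl KO over WT (horizontal axis) of the 10 genes' tested members and of 15 other lists, with the number of tested genes in brackets. The point is the value from all 10 mice by edgeR, and the grey bar spans the 16 other settings. The bar of the lipid-associated macrophage genes runs from -0.43 to 0.17 across 0, and those of the pan-macrophage, resident, monocyte, signalling and growth factor lists cross 0 as well.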

How the data were processed

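Bulk RNA-seq of iBAT from 5 Axl KO and 5 WT mice was deposited as 1 table per mouse with raw counts per gene, made by the authors and not normalized. The submitters' processing notes name bcl2fastq, Trimmomatic 0.36, STAR 2.6.1c and build GRCm38.p5, whereas the study's methods name other trimming and alignment tools, and the counting tool and strand setting are not given in the sources used here. Of 41249 identifiers, 41163 were in GENCODE M21, which gave symbols and positions. Mmp12, Spp1 and Cd9 overlap another gene, which had at most 2 counts over all mice.

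Genes with a mean above 1 CPM over the 10 mice were tested with edgeR 4.0.16 (TMM, quasi-likelihood, Benjamini-Hochberg over all 13739 genes), with DESeq2 1.42.0 as an alternative, in R 4.3.3. The code was tested on simulated data. Total counts of 5431014 to 9580215 set the precision, and Poisson intervals cover counting error only. Co-variation used scipy 1.17.1 and genotype-centred log2(CPM + 0.5). No 2 mice were duplicates of a library (lowest chi-square per gene 5.03).

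The 10 genes and the 17 other lists were chosen with earlier results of these data known. All 10 are named. From each other list, genes called, the 3 with the highest mean and the 1 with the lowest unadjusted p could be named, and the text takes its examples from these. The replicate numbers of the labels were not used to pair the mice. Same-numbered mice had correlations of -0.19, 0.37, 0.05, 0.06 and -0.36, so no pairing was visible, though so few mice cannot exclude one. Labels and methods differ on RNA selection (polyA against depletion of ribosomal RNA) and on age at the start of HFD. The study's figure legend also gives another length of HFD. The labels' age and length are given here.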

Additional observations from a re-analysis of the deposited data

Results flagged for a closer look

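In all, 5 values lay further from the rest of their genotype than Dixon's 95% critical value for 5 mice (0.71 of the range) allows. Axl KO replicate 3 was the highest mouse for Tyrobp (8.28 CPM, next 4.51), Mmp12 (3.96 CPM, next 1.13) and Lgals3 (10.8 CPM, next 4.89), and for the summed level of the 10 genes (49.7 CPM, next 25.8). WT replicate 1 was the highest WT mouse for Spp1 at 0.819 CPM, next 0.378, which is 6 counts against 3. Altogether 26 groups were examined, and chance flags about 1 in 20, or 1.3 of them. The genes share mice, so the flags of Axl KO replicate 3 are not separate events. Its total count of 8214841 was the highest of the Axl KO mice and within the range of WT.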

How the results depend on the processing

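The count of called genes, 1 by edgeR, was also 1 under the other normalization, both other filters and every left-out mouse, and 9 with DESeq2. The median log2 fold change of the 9 tested genes, 0.01, ranged from -0.43 (without Axl KO replicate 3) to 0.17 (without WT replicate 5) when 1 mouse was left out, and changed sign in 8 of 16 alternatives. Without both of these mice, a choice made after seeing the data, it was -0.23. Trem2 kept its direction in every alternative that fitted it, from 0.72 to 1.32, and so did Tyrobp, from -0.51 to -0.07. Because Trem2 was picked for that direction in the same counts, nothing is read from its keeping it. Mmp12 ran from -1.11 to 0.71. The filter of edgeR by count (filterByExpr) left out Trem2, Mmp12 and Itgax, so these could not be fitted under it. The number of relations with the pan-macrophage mean past an adjusted p of 0.05 ranged from 0 to 1, and of pairs from 0 to 3, when 1 mouse was left out, the highest without Axl KO replicate 4. With the replicate number as a block, 1 gene was called and the median was -0.06. No pairing by number was visible, since a mouse correlated best with its own number in 1 of 5 pairs, but so few pairs cannot exclude one. The cause of these shifts was not tested. Depth limits every value, as Trem2 rests on 74 counts and Spp1 on 26.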

Other observations

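Outside the lists, the tested genes whose genotype-centred level lay closest to the mean of the 9 genes over the 10 mice were Lcp1 (Pearson r 0.97), Ldlrad4, Ctps2, Fbln2, Pam, Klhl13, Nkd1, Samd9l, Clec12a and Gm8995 (r 0.94). They are the top 10 of 13739 genes by this measure, so their r is high by selection and has no test, and all points share the same libraries. Lcp1, which encodes the leukocyte actin-bundling protein L-plastin, ranged from 12.4 to 26.7 CPM, and Clec12a, a myeloid lectin receptor, from 1.16 to 5.01 CPM. Fbln2, a matrix protein, ranged from 36.8 to 66.3 CPM.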
